A study of Rattus norvegicus with 56 samples.

Results

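Gene expression 48 h after intermittent theta burst stimulation (iTBS) was compared directly with gene expression 48 h after 1 Hz stimulation, 2 forms of repetitive transcranial magnetic stimulation (rTMS), without sham in the contrast. The comparison used the 8 arrays whose titles carry iTBS at 48 h (n = 4) or 1 Hz at 48 h (n = 4), out of 56 arrays in the series. Every sample was a primary culture of hippocampal neurons from Sprague-Dawley rat embryos at embryonic day 18, stimulated in the dish over an inverted coil with the stimulator set to 15% of its full power and then returned to the incubator until RNA was collected. Sham cultures at 48 h (n = 3), which sat in the stimulation incubator at a distance from the coil, are given beside the protocols as a reference level. The other times after stimulation were 0, 2, 8 and 24 h. Neither protocol carries a genetic change, and the labels do not say whether the arrays of a group came from separate cultures, so all p-values measure only the spread between these samples, which may be technical.

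rTMS induces currents in neurons through a changing magnetic field. In the motor cortex, even trains at 1 Hz are known for lowering excitability and iTBS, in which short high-frequency bursts recur at the theta rhythm, for raising it. In neurons, strong activity first switches on immediate-early transcription factors such as Fos, Egr1 and Npas4, then effectors such as Arc and Bdnf that act at synapses, and on a scale of days it can be followed by scaling of receptors, ion channels and release proteins. The question here was whether the cultures that had received these protocols differed 2 days later in any of these groups.

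Levels are scaled log2 signals: the log2 processed signal of a probe was converted to a z-score within its array and brought back to log2 units with a factor of 4.06 (the SD of the log2 signals on a typical array), so that the mean of all probes on an array is 0 and a difference reads as a log2 change. The 8 arrays correlated with each other between 0.937 and 0.991, and 66.1% to 81.1% of their spots were well above background. They came as 4 pairs, because replicate numbers 1 to 4 of both groups carried the same sample-number series (A, B, C and D) and lay on the same slide. The arrays of 1 Hz were brighter than their iTBS partners in all 4 pairs: the 75th percentile of the processed signal was 18416 against 4643 in pair 1, 3865 against 1999 in pair 2, 5970 against 5540 in pair 3 and 8156 against 5470 in pair 4. The array of 1 Hz replicate 1 stood apart as the brightest of the series. The part of brightness in the differences below was not tested. Among the cell type markers, all 17 neuron, 12 astrocyte and 14 oligodendrocyte lineage markers that were tested were well above background on all 8 arrays, compared with 5 of 12 microglia markers and 11 of 15 endothelial, mural and fibroblast markers, so these cultures held glial transcripts beside neuronal ones. In such bulk samples fewer cells of a type and less RNA per cell cannot be told apart.

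Genes of several kinds differed in the same direction in all 4 pairs. Of all genes, 5.72% were higher and 12.4% lower after iTBS in all 4, and the genes named here were picked from these. After iTBS, transcripts of the synaptic adhesion protein Lrrc4b, the spine scaffold Ppp1r9b (spinophilin) and the cytokine receptor Cntfr were higher than after 1 Hz in all 4 pairs, with mean differences of +0.71 to +1.04 on the log2 scale. The T-type calcium channel Cacna1h, the Wnt coreceptor Lrp5 and the leukocyte tetraspanin Cd53 were lower in all 4 pairs, with mean differences of −0.70 to −0.97. No single transcript passed the test across the array, however. With limma, 0 of 35694 probes (0%) had a Benjamini-Hochberg adjusted p under 0.05 when all groups of the series shared 1 estimate of the spread (smallest adjusted p 0.958), and 1195 had an unadjusted p under 0.05, of which 607 (1.7% of probes) were higher and 588 (1.65%) lower after iTBS. If p-values were spread evenly, about 1785 probes would be under that unadjusted p. This fit counts the spread between series as error, so that number is not its own chance level. In simulated data, 1.97% of unchanged probes were under that p in this fit. With the replicate number as a block in the 8 arrays, which compares each iTBS array with its own 1 Hz partner, again 0 probes passed (smallest adjusted p 0.266), with 1955 at an unadjusted p under 0.05, 783 (2.19%) higher and 1172 (3.28%) lower. With 3 residual degrees of freedom in the 8 arrays, the count of 0 from the blocked fit does not show that the protocols did not differ. Values below are therefore given as differences, many of them with their errors, and no gene is said to have risen or fallen. Each SE, unless said otherwise, is from the fit without the block, so it counts the spread between series as error. Over all probes the median SE was 0.344 in that fit and 0.211 with the block. Where a value is given without 1 array, the partner of that array stayed in, so the series were then not balanced.

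The 4 pairs shared little of their difference. Across the 35694 probes, the pair differences correlated between −0.031 and 0.241, and their SD was 0.942 in pair 1 against 0.673, 0.492 and 0.526 in pairs 2, 3 and 4. Among the 13881 genes with a symbol, 1 probe each, 794 (5.72%) were higher after iTBS in all 4 pairs and 1722 (12.4%) were lower in all 4, and for 23 genes (0.166%) all iTBS arrays lay above all 1 Hz arrays while for 103 (0.742%) they lay below. Over all probes tested, 6.44% were higher and 10.5% lower in all 4 pairs, 0.277% and 0.633% did not overlap on the higher and the lower side, and 45.9% had a mean difference above 0. The median difference over the genes was −0.046, and it turned to +0.023 with 7449 of 13881 genes higher when arrays were scaled by the 75th percentile, so the lean to the lower side depends on the scaling. The lower side was fuller among dim probes. When the tested probes were divided by mean signal into 3 equal parts, in the dimmest part the median difference was −0.11 and 40.4% of probes were higher after iTBS, in the middle part it was −0.023 with 47.3% higher, and in the brightest part it was −0.00085 with 49.9% higher. Pair 3 went the other way, with a median of +0.10 in the dimmest part and −0.067 in the brightest. The iTBS arrays were also the dimmer ones of each pair, and the part of this in the lean was not tested.

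The genes described next are the 12 per direction with the smallest p in the fit with the replicate block, among genes with a probe well above background on all 8 arrays that differed in the same direction in all 4 pairs. They were selected on this contrast, so the p-values describe them and support nothing further. The plot of pair differences shows 23 of the 24.

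**Figure D1:**
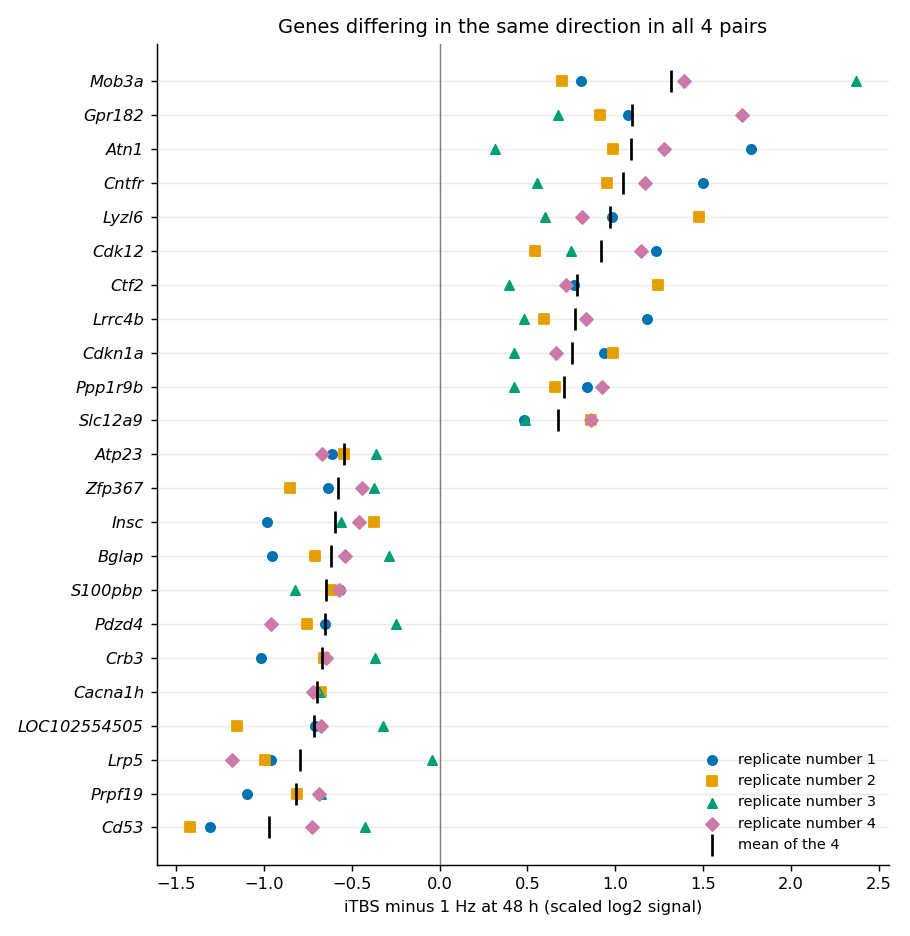
The horizontal axis gives the difference in scaled log2 signal between iTBS and 1 Hz at 48 h, and each row is 1 of 23 of the 24 genes that differed in the same direction in all 4 pairs with the smallest p in the fit with the replicate block. Coloured symbols are the 4 replicate numbers and the black tick is their mean; Cacna1h has its 4 symbols between −0.72 and −0.68, while Mob3a spreads from 0.69 to 2.37.

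Several of the higher genes act at the synapse or membrane of neurons. Lrrc4b encodes a postsynaptic adhesion protein that takes part in the formation of excitatory synapses. Its level on the 1 Hz arrays of replicates 1 to 4 was 3.05, 4.21, 3.45 and 3.22, and on the iTBS arrays 4.23, 4.80, 3.93 and 4.05. The groups overlapped because replicate 2 was high after both protocols, but within each pair the iTBS array was higher, by 1.18, 0.60, 0.48 and 0.83. The mean difference was +0.77 ± 0.26 (SE; limma unadjusted p 0.00444, with the block 0.00602). Ppp1r9b, or spinophilin, tethers protein phosphatase 1 to actin in dendritic spines. Its levels were −0.43, 0.13, −0.13 and −0.11 after 1 Hz and 0.41, 0.78, 0.29 and 0.81 after iTBS, with no overlap between the groups and a difference of +0.71 ± 0.31 (SE; limma unadjusted p 0.0269, with the block 0.00563). The gene has 2 further probes on the array, and each was also higher in 4 of 4 pairs, by +0.42 and +0.38. With the background corrected by normexp, a model that adds an offset and so compresses differences between dim spots, the first probe differed by +0.39. Slc12a9, a member of the cation-chloride cotransporter family, was +0.67 ± 0.23 (SE) higher, and its second probe was higher in 4 of 4 pairs too, by +0.57.

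A receptor and a ligand of the ciliary neurotrophic factor family were also among the higher genes. Cntfr, the receptor subunit that binds ciliary neurotrophic factor, had levels of −1.54, 0.84, −0.073 and −0.40 after 1 Hz and −0.042, 1.79, 0.48 and 0.77 after iTBS. Replicate 1 was the lowest and replicate 2 the highest array under both protocols, and the pair differences were 1.498, 0.95, 0.56 and 1.17. The mean difference was +1.04 ± 0.38 (SE; limma unadjusted p 0.00862, with the block 0.00238), or +0.66 with normexp. Without 1 Hz replicate 1, and with its iTBS partner kept, it was +0.63. Ctf2, which encodes the cytokine cardiotrophin 2 of the same family, was at −1.88, −1.93, −1.68 and −2.45 after 1 Hz and −1.12, −0.69, −1.28 and −1.73 after iTBS. Its difference of +0.78 ± 0.27 (SE) came to +0.37 with normexp.

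Genes with roles in the nucleus completed the higher group, together with several of less known function in neurons. Atn1, a transcriptional corepressor, had levels of −0.044, 2.00, 1.53 and 1.59 after 1 Hz and 1.73, 2.98, 1.84 and 2.87 after iTBS, and the widest pair difference, 1.77, belonged to pair 1. Its mean difference was +1.09 ± 0.41 (SE; limma unadjusted p 0.0108, with the block 0.00664). Without 1 Hz replicate 1, and with its iTBS partner kept, it was +0.65. The other probe of Atn1 differed by +0.49 and was higher in 3 of 4 pairs. Cdk12, a kinase that phosphorylates RNA polymerase II during elongation, had levels of −0.45, 0.21, 0.17 and 0.060 after 1 Hz and 0.79, 0.75, 0.92 and 1.20 after iTBS with no overlap, but its other probe differed by +0.012 and was higher in 2 of 4 pairs. The cell cycle inhibitor Cdkn1a (p21) was +0.75 ± 0.42 (SE) higher by 1 probe and +0.35 by the other, which was higher in 2 of 4 pairs. Mob3a, of the MOB kinase activator family, had the highest mean difference of the 12, +1.31 ± 0.63 (SE), and the least even one, with 0.81, 0.69, 2.37 and 1.39 in the pairs and +0.85 without 1 Hz replicate 3. The G protein-coupled receptor Gpr182 (+1.09 ± 0.49, SE) and the lysozyme-like gene Lyzl6 (+0.97 ± 0.38, SE) were also higher in 4 of 4 pairs. For Gpr182 the highest 1 Hz array, −0.57, lay below the lowest iTBS array, −0.54, and with normexp its difference was +0.48.

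On the lower side, Cacna1h was the most even. It encodes the pore of a low-voltage-activated T-type calcium channel, which opens near the resting potential and shapes burst firing. Its level was 6.17, 5.14, 6.03 and 5.08 after 1 Hz and 5.46, 4.47, 5.34 and 4.36 after iTBS. Replicates 1 and 3 were higher than replicates 2 and 4 under both protocols, so the groups overlapped, yet the pair differences were −0.71, −0.68, −0.69 and −0.72. The mean difference was −0.70 ± 0.33 (SE; limma unadjusted p 0.038, with the block 0.00328), and with the block its SE was 0.14. Lrp5, a coreceptor for Wnt ligands, had levels of 4.75, 3.45, 3.11 and 3.99 after 1 Hz and 3.79, 2.46, 3.06 and 2.81 after iTBS, a difference of −0.79 ± 0.41 (SE; limma unadjusted p 0.0581, with the block 0.0154), and pair 3 differed by −0.046. Without 1 Hz replicate 1, and with its iTBS partner kept, the difference in Lrp5 was −0.49, although pairs 2 and 4 differed by −0.99 and −1.18. Prpf19, a ubiquitin ligase of the spliceosome, had pair differences of −1.10, −0.81, −0.67 and −0.69. Its levels were 4.05, 2.55, 3.19 and 3.61 after 1 Hz and 2.95, 1.74, 2.51 and 2.93 after iTBS. The mean difference in Prpf19 was −0.82 ± 0.74 (SE; limma unadjusted p 0.273, with the block 0.00254). Crb3, of the Crumbs polarity complex, had pair differences of −1.02, −0.66, −0.37 and −0.64, and Insc, an adaptor for the orientation of the mitotic spindle, −0.98, −0.38, −0.56 and −0.46. The mean differences were −0.67 ± 0.36 (SE) for Crb3 and −0.59 ± 0.33 (SE) for Insc.

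Cd53, a tetraspanin of leukocytes that marks microglia in brain tissue, had levels of −0.17, −1.23, −1.44 and −0.27 after 1 Hz and −1.47, −2.65, −1.86 and −0.997 after iTBS. Its difference was −0.97 ± 0.48 (SE; limma unadjusted p 0.0503, with the block 0.00538), or −0.30 with normexp, and replicates 2 and 3 after 1 Hz lay within the iTBS range. The remaining lower genes included the mitochondrial protease Atp23 (−0.55 ± 0.24, SE), the zinc finger gene Zfp367 (−0.58 ± 0.52, SE) and the osteocalcin gene Bglap (−0.62 ± 0.59, SE). The others were the PDZ domain gene Pdzd4 (−0.65 ± 0.40, SE), the transcript LOC102554505 (−0.71 ± 0.43, SE) and S100pbp (−0.64 ± 0.36, SE). For S100pbp the other probes differed by +0.11 and +0.19, both on the higher side, although each was higher in 1 of 4 pairs.

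**Figure D2:**
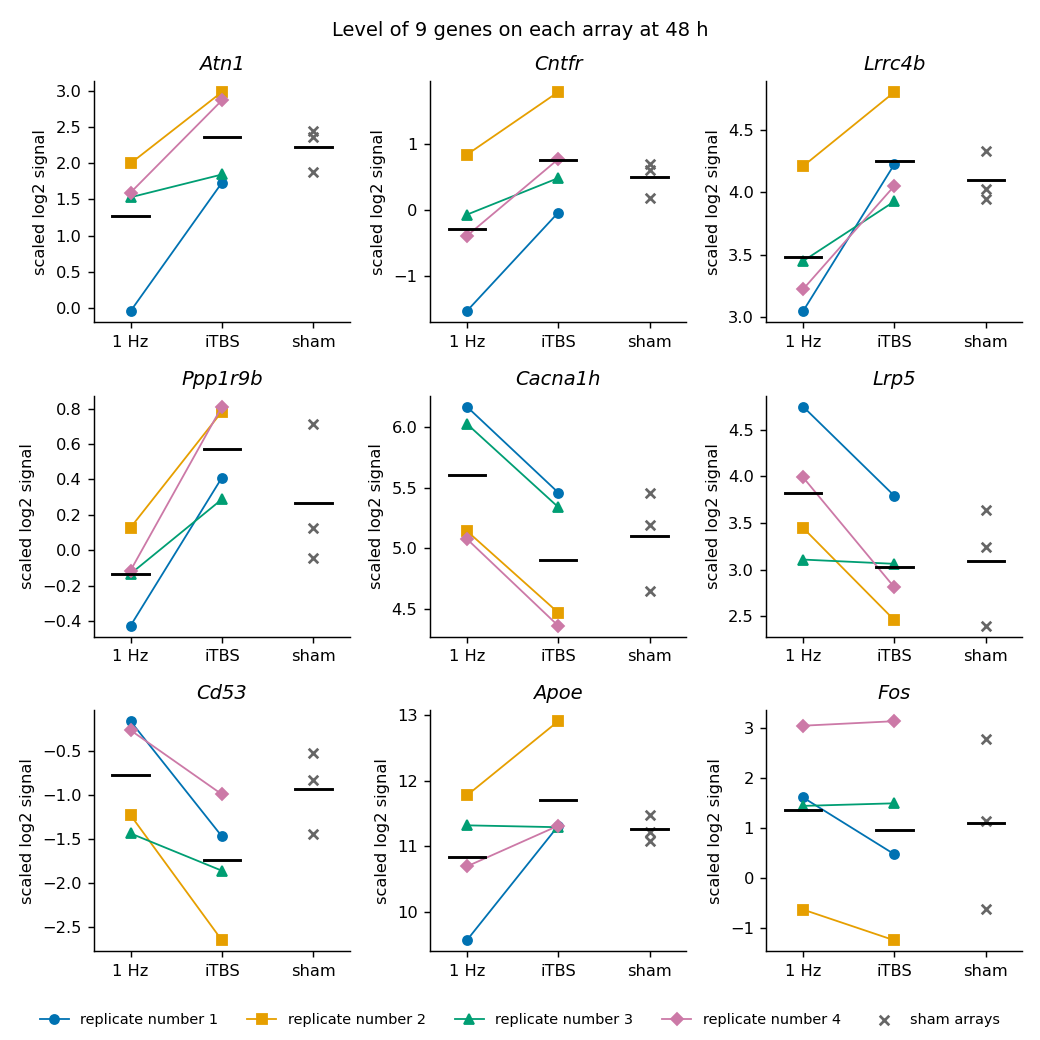
Each panel gives the scaled log2 signal of 1 gene on the 48 h arrays, with lines joining the 1 Hz and iTBS arrays of a replicate number, crosses for the 3 sham arrays and black bars for group means. For Lrrc4b, Cntfr and Ppp1r9b every line goes up and for Cacna1h and Cd53 every line goes down, while in Apoe pair 3 is flat (−0.028) and in Fos the pairs diverge.

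Sham at 48 h was set beside both protocols as a reference level. Because sham at 48 h has series A, C and D, its mean was set beside the protocols over those series. For Atn1 the sham mean was 2.23, against 2.15 after iTBS and 1.03 after 1 Hz, and for Lrrc4b it was 4.10, against 4.07 and 3.24. For Cacna1h the sham mean of 5.10 lay between 5.05 after iTBS and 5.76 after 1 Hz. Of the 12 higher genes sham was nearer to iTBS in 8 and nearer to 1 Hz in 4, and of the 12 lower genes it was nearer to iTBS in 10 and to 1 Hz in 2. The genes were selected on the same protocol arrays, and sham was nearer to iTBS in 57.4% of all 11001 genes well above background on the 8 arrays, in 66.3% of the 695 of them that were higher in all 4 pairs and in 54.1% of the 1456 that were lower. Without replicate number 1, which leaves series C and D, sham was nearer to iTBS in 8 of the 12 higher genes and in 8 of the 12 lower genes. The shares beside these were 54.3% of all 11001, 64.3% of the 695 and 48.7% of the 1456.

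A second set of genes had the smallest p in the fit without the block, and it held the Wnt effector Ctnnb1 and the RNA-binding protein Lsm12. Ctnnb1 (beta-catenin) had levels of 1.68, 4.81, 4.48 and 4.37 after 1 Hz and 5.49, 5.29, 4.54 and 5.21 after iTBS, a difference of +1.29 ± 0.37 (SE; limma unadjusted p 0.00111, adjusted p 1.00, with the block unadjusted p 0.0884). The 1 Hz array of replicate 1 was low by itself, and without it the difference was +0.57. Lsm12 had levels of 0.18, 4.01, 3.63 and 2.98 after 1 Hz and 4.29, 4.21, 3.62 and 4.21 after iTBS, again with replicate 1 low after 1 Hz, and its difference of +1.38 ± 0.41 (SE) became +0.54 without that array. Usf2, a helix-loop-helix transcription factor, did not overlap, with 2.18, 2.89, 2.62 and 2.72 after 1 Hz and 3.14, 3.39, 2.96 and 3.19 after iTBS and a difference of +0.57 ± 0.17 (SE; limma unadjusted p 0.00185, with the block 0.0184). Mab21l2, a developmental gene, was +0.76 ± 0.23 (SE) higher and higher in 4 of 4 pairs.

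The lower genes of this set were the iron exporter Slc40a1 (ferroportin), Fra10ac1, the ciliary gene Cfap276, Oxct2b and the homeobox gene Mixl1. Slc40a1 had levels of 0.15, −0.10, −0.44 and 0.29 after 1 Hz and −1.19, −0.69, −0.57 and −0.29 after iTBS, a difference of −0.66 ± 0.20 (SE; limma unadjusted p 0.00178, with the block 0.0297), and its second probe differed by −0.17. Fra10ac1 was lower in 4 of 4 pairs (−0.52 ± 0.17, SE). The probes of Oxct2b (−0.84 ± 0.23, SE), Cfap276 (−0.84 ± 0.29, SE) and Mixl1 (−1.12 ± 0.31, SE) read near background: after iTBS they were well above background on 2, 3 and 2 of the 4 arrays. With normexp background correction these 3 differences shrank to −0.20, −0.26 and −0.14. A second probe of Oxct2b, well above background on all 8 arrays, differed by −0.97 and was higher in 1 of 4 pairs (limma unadjusted p 0.195).

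Activity-regulated transcription factors differed little between the protocols at 48 h beside the spread between series. Fos had levels of 1.61, −0.63, 1.44 and 3.05 after 1 Hz and 0.47, −1.25, 1.496 and 3.14 after iTBS, a range of several log2 units within each group, and a difference of −0.40 ± 1.17 (SE; limma unadjusted p 0.731, with the block 0.169). With the block the SE of Fos was 0.26. The pair differences were −1.14, −0.62, 0.052 and 0.090, so Fos was higher after iTBS in 2 of 4 pairs. Its mean changed sign without 1 Hz replicate 4 (+0.16) or iTBS replicate 2 (+0.34), but both fits kept the partner of the array left out. Egr1 was +0.87 ± 0.95 (SE) higher and higher in 4 of 4 pairs, but the pair differences were 2.44, 0.27, 0.076 and 0.71. Without 1 Hz replicate 1, and with its iTBS partner kept, the difference was −0.027, although pairs 2 to 4 each lay above 0. Npas4 was clearly detected, well above background, on 2 of the 1 Hz arrays and 1 of the iTBS arrays, and its difference of −0.84 ± 1.17 (SE) rests on signal near background. As a group, of 22 immediate-early transcription factors tested, 0 had an unadjusted p under 0.05 in either fit, and the median difference was −0.12 beside −0.046 over all genes. The 4 that were lower in all 4 pairs were Egr2 (−0.36), Egr3 (−0.52), Egr4 (−0.29) and Jun (−0.039), which is 18.2% of the list against 12.4% of all genes, and Egr1 was the 1 that was higher in all of them.

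The synaptic effectors of activity stood close to 0 as a group. Arc, the cytoskeletal protein that removes AMPA receptors, differed by +0.16 ± 1.01 (SE; limma unadjusted p 0.877), with levels of 5.91, 4.37, 2.61 and 2.80 after 1 Hz and 5.46, 4.88, 2.61 and 3.36 after iTBS, and the neurotrophin Bdnf by −0.12 ± 0.73 (SE; limma unadjusted p 0.872). With the block the SE was 0.23 for Arc and 0.21 for Bdnf. Among 27 effectors and feedback regulators the median difference was −0.016 (+0.083 when arrays were scaled by the 75th percentile), and 2 had an unadjusted p under 0.05 with the block, both higher: Nptx2, a pentraxin that clusters AMPA receptors (+0.48, unadjusted p 0.0228 with the block), and the granule protein Vgf (+0.39, unadjusted p 0.046 with the block). For comparison, 1.82% of all genes were higher at that p and 2.72% were lower. The MAP kinase inhibitor Spry2 was the highest of the list (+0.73), with 1.95, 0.16, −0.020 and 0.81 in the pairs, and the prohormone convertase Pcsk1 the lowest (−0.45). Among 12 neurotrophins and receptors, 0 had an unadjusted p under 0.05, and Gdnf was the lowest (−0.63).

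Release proteins leaned to the higher side. Of 27 genes of the presynaptic machinery, 20 had a mean difference above 0, compared with 43% of all genes (7449 of 13881 under 75th percentile scaling), and 4 (14.8%) were higher in all 4 pairs against 5.72% of all genes. These were Syp, the vesicle protein synaptophysin (+0.72 ± 0.44, SE), the fusion clamp Cplx1 (+0.51 ± 0.36, SE), the vesicular glutamate transporter Slc17a7 (+0.34 ± 0.36, SE) and the vesicle protein Sv2a (+0.31 ± 0.23, SE). Cplx1 and Syp had unadjusted p-values of 0.0359 and 0.028 with the block. The median over the list was +0.14, with medians of 0.45, 0.14, −0.017 and 0.12 in pairs 1 to 4 and +0.019 without pair 1. The lowest member was Vamp1 (−0.27). The vesicular GABA transporter Slc32a1, of the GABA list, was +0.71 ± 0.63 (SE; unadjusted p 0.0164 with the block) higher and higher in 4 of 4 pairs.

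Glutamate receptor lists had medians above 0 that rested largely on pair 1. Of 8 metabotropic receptors 6 had a mean difference above 0 and the median was +0.42, but the pair medians were 0.61, −0.085, 0.13 and 0.18 and the median without pair 1 was +0.087. Grm3, which couples to the inhibition of adenylyl cyclase, had levels of 1.64, 2.71, 2.42 and 2.57 after 1 Hz and 3.63, 2.53, 2.44 and 3.11 after iTBS, with 2.00 in pair 1 and a mean difference of +0.59 ± 0.25 (SE; limma unadjusted p 0.0235, with the block 0.174; +0.36 without 1 Hz replicate 1). Grm5 was the highest (+0.63; 2.57, −0.32, −0.14 and 0.41 in the pairs). Grm6 was the 1 of the 8 (12.5%) that was higher in all 4 pairs (+0.55), against 5.72% of all genes, and 0 were lower in all 4 against 12.4%. Among 20 AMPA, kainate and NMDA receptor genes and their auxiliary subunits the median was +0.17 (−0.11 without pair 1). The AMPA receptor auxiliary protein Cnih2 was the highest (+0.70 ± 0.40, SE; 1.10, 0.80, −0.0078 and 0.89 in the pairs), and the obligate NMDA receptor subunit Grin1 (+0.43) was higher in all 4 pairs. Of the 20 genes 3 (15%) were higher in all 4 pairs against 5.72% of all genes, and 1 (5%) was lower against 12.4%. The AMPA receptor subunits Gria3 (−0.38) and Gria4 (−0.36) were lower, and for Gria4 all iTBS arrays lay below all 1 Hz arrays. That is 1 of the 20 (5%), against 0.742% of all genes.

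Inhibitory receptors and ion channels had medians near that of all genes. The GABA-A receptor subunit Gabrd differed by −0.053 ± 0.14 (SE; limma unadjusted p 0.712; +0.033 under 75th percentile scaling), with levels of 3.04, 2.42, 2.46 and 2.52 after 1 Hz and 2.73, 2.44, 2.48 and 2.58 after iTBS. Among 21 GABA genes the median was +0.039 (−0.028 without pair 1), Gabra3 was the highest (+0.71) and the chloride exporter Slc12a5 (KCC2) the lowest (−0.21). Of the 21, 3 (14.3%) were higher in all 4 pairs against 5.72% of all genes, and 0 were lower against 12.4%. Among 36 potassium channel genes the median was −0.062, and 5 (13.9%) were lower in all 4 pairs against 12.4% of all genes, with Kcna2 the lowest (−0.48) and Kcnk3 the highest (+0.54). Among 22 sodium and calcium channel genes Cacna1h was the lowest, and the median was +0.093 (−0.035 without pair 1). With the block, 2 of the 22 (9.09%) were lower at an unadjusted p under 0.05, against 2.72% of all genes. On the higher side it was 1 (4.55%), against 1.82%. In the postsynaptic density the scaffold partner Dlgap3 was the highest of 27 genes (+0.79 ± 0.37, SE; 1.28, 0.55, 0.45 and 0.87 in the pairs; unadjusted p 0.00799 with the block). The calcium/calmodulin kinase Camk2g differed by −0.20 ± 0.24 (SE) on 1 probe and by +0.34 on the other.

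Astrocyte markers had a median above 0 that depended on the scaling and on pair 1. Apoe, the main lipid carrier made by astrocytes, had levels of 9.57, 11.78, 11.32 and 10.70 after 1 Hz and 11.31, 12.91, 11.29 and 11.31 after iTBS. Its difference was +0.87 ± 0.32 (SE; limma unadjusted p 0.0105, with the block 0.0317) and it was higher in 3 of 4 pairs. This value was +0.17 under quantile normalization, +0.44 without 1 Hz replicate 1 and +0.47 without iTBS replicate 2. Of 12 astrocyte markers 10 had a mean difference above 0, with a median of +0.29 and pair medians of 0.64, 0.23, −0.00027 and 0.17, and without pair 1 the median was +0.11. Under quantile normalization it was +0.080. Gfap (+0.67), the astrocyte intermediate filament, and Glul (+0.36), glutamine synthetase, were higher in all 4 pairs, and Gjb6 (−0.25) was the lowest. These 2 are 16.7% of the list against 5.72% of all genes, and 0 were lower in all 4 pairs against 12.4%.

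Of 12 microglia markers tested, 2 had a mean difference above 0 and the median was −0.51. The pairs were split, with medians of −1.20, 0.067, 0.22 and −1.04, so that pairs 1 and 4 carried the difference. Over the 5 genes with a probe well above background on all 8 arrays the median was −0.14, with 2 of the 5 higher, and over the whole list it was −0.22 with normexp and −0.35 under 75th percentile scaling. The median level of the list ran from −2.11 to 0.81 on the 1 Hz arrays and from −2.41 to −1.13 on the iTBS arrays. The complement gene C1qb, well above background on all 8 arrays, had a mean difference of −0.70 ± 0.72 (SE) and pair differences of −1.27, 0.10, 0.18 and −1.82. C1qa (−1.40), Aif1 (−1.30) and Trem2 (−1.24) had the same split between pairs, but they were well above background on 3 or 4 of the 8 arrays and their values rest on signal near background. C1qc was not well above background on any iTBS array and on 2 of 4 after 1 Hz, with means of −4.48 and −2.55, and set against the lowest signal well above background it was at least 1.06-fold lower (limma adjusted p 1.00). The chemokine receptor Cx3cr1 had the opposite direction and was higher in all 4 pairs (+0.37 ± 0.64, SE; 0.42, 0.45, 0.33 and 0.30 in the pairs). The neuron markers had a median of +0.12, with tubulin Tubb3 the highest (+0.58) and the glutamate transporter Slc17a6 the lowest (−0.13), and pair medians of 0.29, 0.19, −0.11 and 0.10. The part of the glial share of the cultures in the other differences was not tested.

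**Figure D3:**
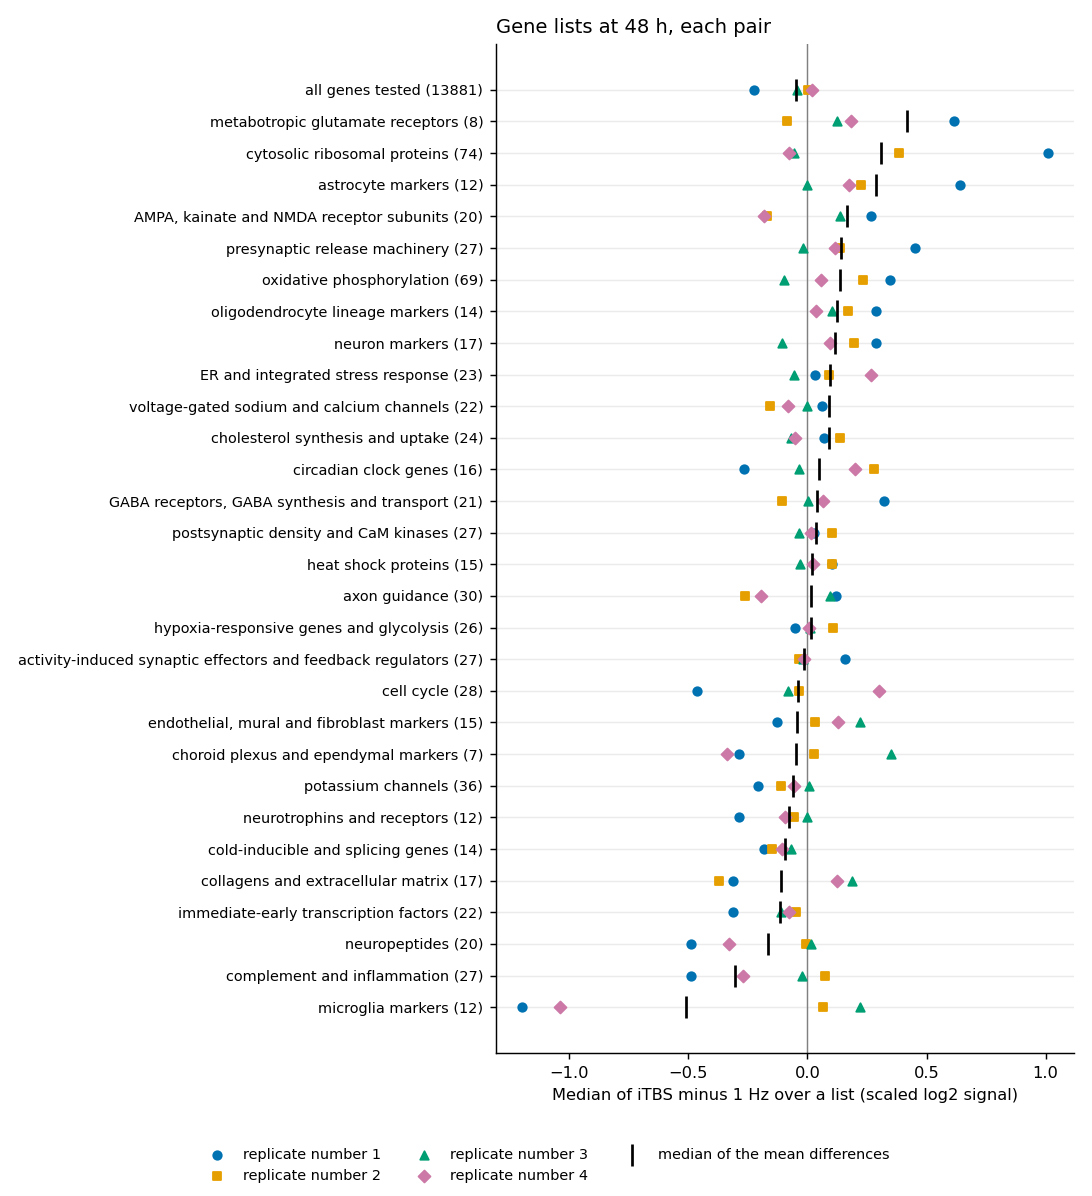
The horizontal axis gives the median over the genes of a list of the difference between iTBS and 1 Hz at 48 h, in scaled log2 signal, with the number of genes in brackets. Coloured symbols are the medians within each replicate number and the black tick is the median of the genes' mean differences; the ribosomal symbols run from −0.078 in pair 4 to 1.01 in pair 1, and the microglia symbols from −1.20 to 0.22.

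The ribosomal and respiratory genes differed alike within a pair and not across pairs. Of 74 cytosolic ribosomal protein genes 72 had a mean difference above 0 and the median was +0.31, but it was −0.051 under quantile normalization. The pair medians were 1.01, 0.38, −0.055 and −0.078, 0 of the genes were higher in all 4 pairs, and pairs 3 and 4 lay on the other side of 0. Rpl41 was the highest (+0.64, but −0.026 under quantile normalization) and Rpl27 the lowest (−0.087). The 69 genes of oxidative phosphorylation had a median of +0.13 (−0.020 under quantile normalization) and pair medians of 0.35, 0.23, −0.10 and 0.056, with the complex III gene Uqcr11 the highest (+0.47) and the complex I gene Ndufs4 the lowest (−0.27). Pair 1, in which the ribosomal and respiratory genes differed most, was also the pair with the brightest 1 Hz array.

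Several RNA-binding and splicing genes had small differences on the lower side. Of 14 cold-inducible and splicing genes 5 (35.7%) were lower in all 4 pairs, against 12.4% of all genes, namely Srsf1 (−0.20), Srsf7 (−0.25), Tra2b (−0.22), the splicing kinase Clk4 (−0.20) and the cold-shock protein Rbm3 (−0.078). The median was −0.094 with pair medians of −0.18, −0.15, −0.068 and −0.11, and 0 members had an unadjusted p under 0.05. Srsf2 was the highest (+0.36; 0.49, 0.60, −0.063 and 0.43 in the pairs). Among 20 neuropeptide genes the median was −0.16. Pdyn, the precursor of dynorphins, was the lowest of those well above background (−0.92 ± 0.64, SE; −1.51, −1.20, 0.067 and −1.05 in the pairs; unadjusted p 0.0193 with the block). Gal (−0.54), Nmb (−0.43) and Chgb (−0.25) were lower in all 4 pairs, 15% of the list against 12.4% of all genes. Vgf (+0.39) was the 1 that was higher in all 4, 5% against 5.72%.

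Complement and inflammation genes had a median of −0.31, which was −0.12 over the 11 of 27 genes with a probe well above background on all 8 arrays, −0.092 with normexp and −0.14 under 75th percentile scaling. The oligodendrocyte lineage markers had a median of +0.13 and the genes of collagens and extracellular matrix one of −0.11. Sparc, a matrix glycoprotein, was +0.74 ± 0.27 (SE; limma unadjusted p 0.00976, with the block 0.013) higher in 4 of 4 pairs, the highest of 17 matrix genes. Of 23 genes of the integrated and endoplasmic reticulum stress responses 3 (13%) were higher in all 4 pairs against 5.72% of all genes, namely Sesn2 (+0.69), Chac1 (+0.49) and Trib3 (+0.28), and 1 was lower, the serine synthesis gene Psat1 (−0.10). Sesn2 and Chac1 had unadjusted p-values of 0.0153 and 0.0326 with the block, which is 8.7% of the list against 1.82% of all genes on the higher side. The protein disulfide isomerase Pdia4 was the highest there (+0.81), with 3.06 in pair 1 and −0.29 in pair 2. The clock gene Bhlhe40 was higher (+0.73) and Per2 lower (−0.44) in all 4 pairs. Each was the only such clock gene of 16 in its direction (6.25%), against 5.72% higher and 12.4% lower of all genes. Among axon guidance genes Unc5c was the highest (+0.90; 2.57, −0.37, 0.53 and 0.87 in the pairs) and Efna1 the lowest (−0.53), and the myelin gene Cnp (+1.30) had 3.90 in pair 1. The lists of Alzheimer's disease, glutamate, GABA and learning genes that the study had picked on these arrays had medians of +0.10, +0.25, +0.039 and +0.11, and since the study chose them on these samples their direction is not independent evidence.

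The final comparison asked whether the contrast at 48 h differed from the same contrast at other times. The difference at 48 h minus the mean of the differences at 0, 2, 8 and 24 h passed for 0 of 35694 probes (0%; limma, smallest adjusted p 1.00), with 806 (2.26%) at an unadjusted p under 0.05. For genes, 1 probe each, that share was 2.03%. The other contrasts rest on 3 arrays of iTBS against 3 of 1 Hz (24 h), 3 against 4 (8 h), 4 against 2 (2 h) and 4 against 3 (0 h). The arrays at those times were not balanced over the sample-number series: at 24 h iTBS had series B, C and D and 1 Hz had A, C and D, at 8 h iTBS lacked series A, at 2 h 1 Hz had only C and D, and at 0 h 1 Hz lacked A. Differences were therefore also taken over the series that both protocols had, which were 2 at 24 h and at 2 h and 3 at the others. Over matched series, the differences of the 11001 genes well above background on the 48 h arrays had a correlation between 48 and 24 h of 0.0871 (Pearson) and 0.138 (Spearman), across genes, which are not independent replicates. With 8 h the Pearson and Spearman values were −0.131 and −0.269, with 2 h −0.0723 and −0.0776, and with 0 h −0.00193 and 0.130.

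The 24 genes selected at 48 h were then read on the arrays of the other times, which the selection had not used. Over matched series at 24 h, 9 of 12 higher genes were higher after iTBS, with a median of +0.13 and a range of −1.07 to 0.44, beside 55.9% of the 11001 genes and 55.8% of the 695 that were higher in all 4 pairs at 48 h. Of the 12 lower genes 8 were lower, with a median of −0.027 and a range of −0.35 to 0.31, beside 44.1% of the 11001 genes and 48.9% of the 1456 that were lower in all 4 pairs. Over all arrays at 24 h, with the series unbalanced, the counts were 12 of 12 (median +0.25) and 9 of 12 (median −0.25), beside 58.9% higher and 41.1% lower of the 11001, 59.1% higher of the 695 and 60.5% lower of the 1456. The values at 24 h thus moved with the choice of series. Gpr182 (+0.44), Cntfr (+0.35) and Atn1 (+0.27) were higher over matched series at 24 h, while Mob3a was −1.07, and among the lower genes Lrp5 (−0.35), Cd53 (−0.35) and Insc (−0.34) were lower, while Cacna1h was −0.017 and Pdzd4 +0.31. These values have 2 arrays of each protocol behind them and no test.

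At 8, 2 and 0 h over matched series, 3, 4 and 4 of the 12 higher genes were higher, beside 48.01%, 57.5% and 43.6% of the 11001 genes. Of all genes well above background that were higher in all 4 pairs at 48 h, 19.3%, 35.3% and 61.9% were higher. Of the 12 lower genes 2, 5 and 5 were lower, beside 51.99%, 42.5% and 56.4% of the 11001. Among those lower in all 4 pairs at 48 h, 28.5%, 36.5% and 71.1% were lower. The shares among genes of the same direction in all 4 pairs thus lay below those of the 11001 at 8 and 2 h and above them at 0 h. Over all arrays at 2 h, with the series unbalanced, 52.5% of the 695 were higher, beside 46.5% of the 11001. Of the 1456, 51.7% were lower, beside 53.5%. The higher side at 2 h thus moved with the choice of series. Medians of the 12 higher and of the 12 lower genes at those times lay between −0.18 and +0.10. Against the mean of the other times, Cacna1h at 48 h differed by −0.89 ± 0.37 (SE; limma unadjusted p 0.0218, adjusted p 1.00), or with the series as a block by −0.91 ± 0.24 (SE; limma unadjusted p 0.000413, adjusted p 0.842). Its matched differences at 8, 2 and 0 h were +0.18, +0.38 and +0.28. Cntfr differed by +0.99 ± 0.44 (SE; limma unadjusted p 0.0278, adjusted p 1.00), or with the series block by +0.98 ± 0.43 (SE; limma unadjusted p 0.0295, adjusted p 0.842), with matched differences of −0.39, −0.21 and −0.036 at 8, 2 and 0 h. Both genes were selected on the 48 h contrast, which is a part of this comparison.

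**Figure D4:**
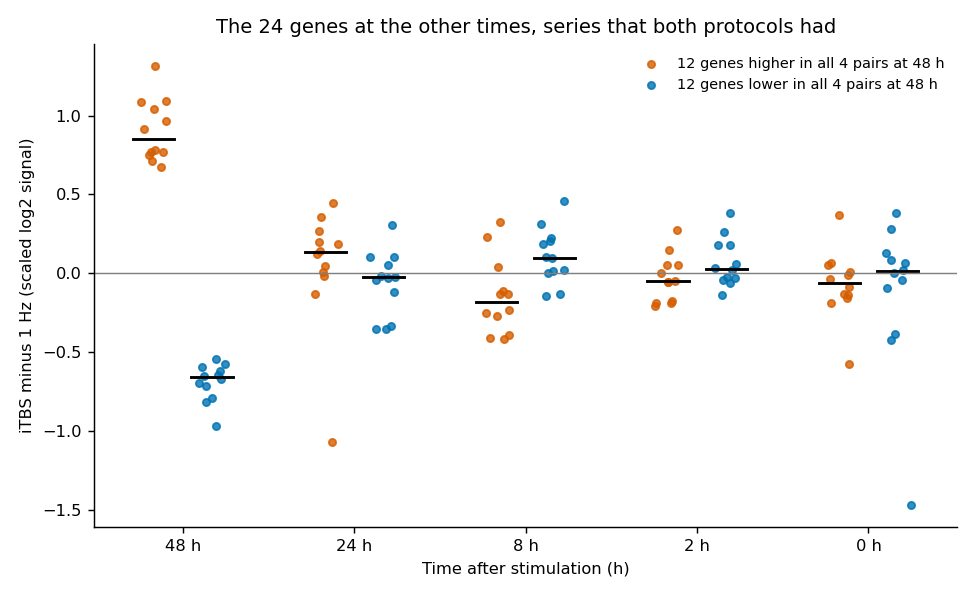
The vertical axis gives iTBS minus 1 Hz in scaled log2 signal at each time after stimulation, over the sample-number series that both protocols had (all 4 at 48 h, 2 at 24 and 2 h, 3 at 8 and 0 h), for the 12 genes higher (orange) and the 12 genes lower (blue) in all 4 pairs at 48 h, with 1 point per gene and black bars at the medians. The 48 h values selected the genes; at 24 h, on other arrays, the medians are +0.13 and −0.027, and at 8, 2 and 0 h both lie between −0.18 and +0.10.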

How the data were processed

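Total RNA of each culture was labelled with Cy3 and hybridized to an Agilent rat 1-colour array, 1 sample per array. The authors extracted spot intensities with Agilent Feature Extraction 12.0.3.1, and the deposited scanner files hold a background-corrected processed signal, an intensity on a linear scale with no normalization from array to array. In the deposited matrix each spot has a score, which the authors made as a z-score of the signal within each array. It differed from z-scores of the log10 processed signal by at most 0.005. The header names build rn4. Symbols were matched by accession to a RefSeq table of another assembly, GRCr8, for 46.3% of 45598 probes, so no coordinates are given.

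Here, log2 processed signals were averaged per probe (outlier spots and 420 probes left without a value dropped) and converted to z-scores within each array times 4.06. One array with a badly placed grid, 1 Hz at 2 h replicate 2, was left out after the files were seen. Group means of the other 55 arrays were fitted with limma 3.58.1 in R 4.3.3 (39 residual and 2.82 prior degrees of freedom) on the 35694 probes well above background on at least 3 arrays, which left out 9484 probes. All tests were two-sided with Benjamini-Hochberg adjustment over those probes. The median SE was 0.344, and the number of arrays limits the precision.

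Replicate numbers matched sample-number series and slides in both groups, and deviations of same-numbered arrays from their group means correlated by 0.450, 0.594, 0.403 and 0.759, all above the limit of 0.1, so the numbers pair the samples. The fit with the replicate block used the 8 arrays (3 residual and 2.77 prior degrees of freedom, median SE 0.211). The genes and lists were chosen with earlier results of these data known. The named genes were probes past an adjusted p of 0.05 (0 found), the 12 genes per direction with the smallest p under the block among those of 1 direction in all 4 pairs, the 5 per direction with the smallest p without the block among those well above background on every array of at least 1 group, 9 activity, receptor and lipid genes (Fos, Arc, Egr1, Npas4, Bdnf, Gabrd, Apoe, Camk2g and Grm3), and the highest and lowest member of each list among those well above background on all 8 arrays. In lists, each gene was represented by its probe of highest mean signal. Members named for being of 1 direction in all 4 pairs or for a p under 0.05, and genes such as C1qa or Trem2 beside them, were chosen after their values were seen.

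The alternatives were 75th percentile scaling, quantile normalization, normexp with an offset of 50, the deposited z-scores, other filters on dim probes, other sets of arrays, series and slide blocks, a variance trend, the criteria of the study's methods and leaving out each array. Scaling or background correction together with the block, leaving out a pair, differences over matched series at the other times, sham without replicate number 1, and some alternatives for the comparison with other times were added after the data were seen. The deposited scanner files hold no mean signal, so normexp used the median signal. The fits were tested on simulated data with planted changes at 48 h. At an adjusted p under 0.05, the limma fit without the block called 23 of 100 probes changed by 1 log2 unit and 74 of 100 changed by 2. In the same simulated data, the limma fit with the replicate block called 0 of 100 at either size. Whether that fit could have found such changes in the real arrays was not tested, so no conclusion is drawn from its count of 0 probes. Results of some genes are not reported here, although counts over genes and lists include them.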

Additional observations from a re-analysis of the deposited data

Results flagged for a closer look

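In the 4 arrays of a group, a value was marked where its gap to the nearest of the others was most of the group's range by Dixon's criterion at the 95% level. This marked 15 of the 200 sets of values of named genes, and chance marks about 1 in 20. All values are scaled log2 signals at 48 h.

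After 1 Hz, replicate 1 was low for the cell cycle inhibitor Cdkn1a (−1.66, nearest −0.49), for Ctnnb1 (1.68, nearest 4.37) and for Spry2 (1.97, nearest 3.77). The same array was high for Gabrd (3.04, nearest 2.52) and for the complex I gene Ndufs4 (3.86, nearest 1.70). Replicate 4 after 1 Hz was low for the myelin lipid enzyme Ugt8 (0.88, nearest 4.31).

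After iTBS, replicate 2 was high for Apoe (12.91, nearest 11.31), for the chaperone Hspa8 (12.54, nearest 10.98) and for the ribosomal gene Rpl41 (13.04, nearest 11.70). It was low for Crb3 (−0.50, nearest 0.37) and for the clock gene Per2 (1.93, nearest 2.73). Replicate 1 was high for Zfp367 (0.83, nearest −0.33). Replicate 3 was low for Lsm12 (3.62, nearest 4.21) and for the potassium channel Kcnk3 (−1.91, nearest −0.87). Replicate 4 was high for Spry2 (4.73, nearest 3.93).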

How the results depend on the processing

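The count of 0 probes passing at 48 h, and that of 0 for the comparison with the other times, held under every alternative run except 1. Leaving out each array in turn gave 0 to 1 probes for both. The 1 probe appeared without iTBS replicate 4 and was A_43_P23444, which has no symbol here and was chosen after its values were seen (adjusted p 0.00132 in limma, and 0.0277 against the other times). With all arrays its difference was +2.33 ± 0.55 (SE, adjusted p 1.00), and because 0 of the 4 arrays of 1 Hz and 2 of the 4 of iTBS showed it well above background, it is given as at least 1.15-fold higher. The cause was not tested. The smallest adjusted p of limma was otherwise between 0.0894 (without iTBS replicate 3) and 1.00. The replicate block, which pairs the arrays by number, gave 0 probes and raised those at an unadjusted p under 0.05 from 1195 to 1955, and the series block gave 2992. With 3 residual degrees of freedom, the 0 of the replicate block carries little information. All 56 arrays gave 336 and the 8 arrays alone 409. Without 1 Hz replicate 1 there were 762, and without 1 Hz replicate 2, 2585. The cut-offs of the study's methods also passed 0 probes, but the order of steps differed. The study filtered probes by ANOVA before the pairwise test. Here the false discovery rate was taken over all 35694 probes and not over the 2913 that passed the ANOVA, which is stricter. Of 2796 values of the 100 named genes, 14 moved by more than the spread between replicates, all with normexp, and 44 in 19 genes changed sign. Medians changed sign somewhere in 23 of 34 lists, and among the scalings quantile normalization turned those of ribosomal, respiratory, cholesterol, axon guidance, hypoxia and glycolysis genes, synaptic effectors, endothelial, mural and fibroblast markers and the study's GABA selection. Arrays give no read depth, and probes not well above background limit what could be seen for microglia and inflammatory genes.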
